A study of Mus musculus with 48 samples.

Results

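The 9 genes described here encode enzymes that detoxify quinones, carbonyls and epoxides, together with the transcription factor that controls many of them and its repressor: Nqo1, Cbr1, Cbr3, Ephx1, Osgin1, Ugdh, Cat, Nfe2l2 and Keap1. They were chosen by symbol from a study of mouse lung cells, with the probe of the highest mean level standing for each gene, and all 9 had a probe, among 20738 genes with one on the array. The Agilent arrays, each hybridised with Cy3-labelled RNA of 1 sample, fall into 6 groups of 8. AECII are alveolar epithelial type II cells, which make surfactant, and PASMC are pulmonary artery smooth muscle cells. Both were isolated from C57Bl/6J mice, and the study names 8 mice in all. In each cell type, 8 samples received an extract of e-cigarette vapour (ECVE in the labels) whose e-liquid held nicotine at 18 mg/ml (the 18mg group), 8 received an extract whose e-liquid held it at 0 mg/ml (0mg), and 8 samples labelled room air are the controls (Ctrl). The extract was used at 15% for 24 hours. AECII were kept in medium with 10% serum and exposed 24 hours after isolation, and PASMC were kept in medium with 15% serum and passaged first, so cell type and culture history cannot be told apart. The labels do not say which arrays come from the same mouse, and every p-value here treats the arrays as independent.

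Quinones can take up 1 electron at a time and pass it to oxygen, and NQO1, a cytosolic flavoenzyme, avoids this by reducing them with an electron pair. The carbonyl reductases CBR1 and CBR3 reduce aldehydes and ketones to alcohols, EPHX1 opens epoxide rings with water, UGDH makes the UDP-glucuronic acid used to conjugate phenols and alcohols, and catalase breaks down hydrogen peroxide. NRF2, the product of Nfe2l2, is held low by KEAP1 until electrophiles modify KEAP1, and it then binds antioxidant response elements in the promoters of Nqo1 and other detoxification genes. Osgin1, oxidative stress induced growth inhibitor 1, is another known NRF2 target. E-cigarette vapour contains carbonyls such as acrolein and formaldehyde, which are electrophiles of this kind.

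Promoters are shown for Cbr3, with Ugdh and Nqo1, the genes whose levels correlated with it between AECII arrays. Osgin1 is also shown, as the gene with the largest difference between AECII and PASMC controls. Each runs from 250 bases before to 50 bases after the start in the RefSeq table (build GRCm38.p6), 5′ to 3′ on the gene's strand, with capitals on matches to TGACNNNGC, the core of the antioxidant response element, or to TGACTCA, an AP-1 site, searched on both strands. Cbr3 is at chr16:93682969-93683268 on the plus strand, Ugdh at chr5:65435793-65436092 on the minus strand, Nqo1 at chr8:107403156-107403455 on the minus strand and Osgin1 at chr8:119436897-119437196 on the plus strand, at a start that lies inside the annotated gene.
Cbr3: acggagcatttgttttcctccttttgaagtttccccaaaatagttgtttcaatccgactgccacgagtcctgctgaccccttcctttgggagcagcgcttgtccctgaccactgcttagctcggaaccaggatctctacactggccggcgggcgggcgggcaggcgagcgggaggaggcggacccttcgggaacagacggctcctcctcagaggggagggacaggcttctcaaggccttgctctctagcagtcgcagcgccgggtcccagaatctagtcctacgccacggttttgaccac
Ugdh: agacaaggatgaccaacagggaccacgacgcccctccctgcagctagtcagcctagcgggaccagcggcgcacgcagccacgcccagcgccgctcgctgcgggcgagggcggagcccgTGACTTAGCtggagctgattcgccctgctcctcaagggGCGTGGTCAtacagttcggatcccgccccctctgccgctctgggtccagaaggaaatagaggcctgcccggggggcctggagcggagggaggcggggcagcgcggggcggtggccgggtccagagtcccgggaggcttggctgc
Nqo1: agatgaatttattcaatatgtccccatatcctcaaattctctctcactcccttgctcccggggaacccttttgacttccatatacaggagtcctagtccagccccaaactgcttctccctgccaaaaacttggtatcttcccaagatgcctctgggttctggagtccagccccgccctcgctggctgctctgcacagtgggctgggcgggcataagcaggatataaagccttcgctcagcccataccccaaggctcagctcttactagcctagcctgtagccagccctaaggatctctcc
Osgin1: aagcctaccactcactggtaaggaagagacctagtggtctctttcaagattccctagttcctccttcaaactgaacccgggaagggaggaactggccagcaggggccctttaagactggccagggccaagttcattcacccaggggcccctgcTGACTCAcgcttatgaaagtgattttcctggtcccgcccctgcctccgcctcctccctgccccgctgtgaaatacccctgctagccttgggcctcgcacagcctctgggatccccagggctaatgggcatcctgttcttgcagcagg
In that build the genes span chr8:107388225-107403205 (Nqo1), chr16:93607837-93610349 (Cbr1), chr16:93683219-93690991 (Cbr3), chr1:180989556-181017569 (Ephx1), chr5:65413207-65435842 (Ugdh), chr2:103453904-103485153 (Cat), chr8:119425882-119446257 (Osgin1), chr2:75675513-75704663 (Nfe2l2) and chr9:21229730-21239332 (Keap1). Ugdh held 2 matches to TGACNNNGC, beginning 132 and 94 bases before the start, the second on the opposite strand. Osgin1 held 1 match to TGACTCA, 97 bases before the start, and the Cbr3 and Nqo1 windows held neither motif. Of all 9 genes, 2 had TGACNNNGC in this window (Ugdh, and Nfe2l2 at 240 bases before the start) and 1 had TGACTCA, against 12.4% and 5.20% of 32851 mouse promoters of the same length. The motifs do not overlap in these windows, and a match describes the letters only.

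The deposited values are log2 intensities that run up to 15.89 on each array, with array medians between 2.97 and 2.98. Levels are compared between arrays for 1 probe, never between genes. Within a group, arrays correlated at 0.978 to 0.986 in AECII and 0.953 to 0.986 in PASMC. AECII control arrays carried the surfactant message Sftpc at 14.33 ± 0.30 (SD, n = 8), and also the club cell secretory gene Scgb1a1 at 15.73 ± 0.05 and the mesothelial gene Msln at 14.16 ± 0.17. PASMC control arrays carried the actin Acta2 at 14.98 ± 0.34, against 11.71 ± 0.67 in AECII controls, and the collagen gene Col1a1 at 13.40 ± 0.36. The epithelial keratin Krt8 ran from 2.65 to 10.62 over PASMC controls, so its RNA differed widely between PASMC cultures, while the smallest value in AECII controls was 14.62. In bulk RNA, fewer cells of a type and less RNA per cell cannot be told apart.

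In AECII, none of the 9 genes passed the test under either extract, and neither did any other gene: limma called 0 of 14772 genes (0%) at an adjusted p under 0.05 with 18mg and 0 (0%) with 0mg, while 348 and 498 genes had an unadjusted p under 0.05. The 2 comparisons share their 8 control arrays. With 18mg the largest differences were those of Cbr3, Nqo1 and Ephx1, and with 0mg those of Nqo1, Cbr3 and Osgin1, all positive. Cbr3, the less studied of the carbonyl reductases, had a lowest, median and highest level of 11.66, 11.87 and 12.32 in 18mg cultures and of 11.32, 11.83 and 11.98 in 0mg cultures, against 11.07, 11.56 and 11.93 in controls. The ranges overlapped, yet all 8 of the 18mg arrays and 7 of 8 of the 0mg arrays were above the control mean of 11.52. The difference was 0.44 log2 units with 18mg (SE 0.12, 95% interval 0.19 to 0.69, adjusted p = 1.00 in limma) and 0.28 with 0mg (SE 0.12, interval 0.03 to 0.52, adjusted p = 1.00). Before adjustment both intervals leave out 0, and with 18mg Cbr3 ranked 10 of 14772 genes by p.

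Ephx1, the microsomal epoxide hydrolase, had levels of 11.57, 11.92 and 12.27 (lowest, median, highest) in 18mg cultures and of 11.47, 11.75 and 12.04 in 0mg cultures, against 11.29, 11.60 and 12.03 in controls. The groups overlapped over most of their range, with 7 of 8 of the 18mg arrays above the control mean. The log2 difference was 0.31 with 18mg (SE 0.11, interval 0.09 to 0.54, rank 70 by p) and 0.16 with 0mg (SE 0.11, interval -0.07 to 0.38), neither of which passed the test. A dimmer second probe of Ephx1 averaged 7.18 ± 0.35 in 18mg, 7.01 ± 0.44 in 0mg and 6.99 ± 0.20 in control cultures (SD, n = 8 each).

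Nqo1, the quinone reductase and the most used marker of NRF2 activity, had levels of 7.88, 9.12 and 9.89 in 18mg cultures and of 8.25, 9.14 and 9.53 in 0mg cultures, against 7.49, 8.98 and 9.23 in controls. Each group held 1 array far below its other 7. The log2 difference was 0.36 with 18mg (SE 0.26, interval -0.17 to 0.89) and 0.34 with 0mg (SE 0.26, interval -0.19 to 0.87), with 7 of 8 arrays of each extract above the control mean. The value moved down or up with the low array left out. With 18mg it was 0.17 without control replicate 6 and 0.54 without 18mg replicate 7. With 0mg it was 0.15 without that control array and 0.47 without 0mg replicate 1. Each of these fits kept the low arrays of the other groups. No fit left out all of them, so the difference without any low array is not given. On the low arrays themselves Nqo1 was 7.88 with 18mg and 8.25 with 0mg, against 7.49 in the control.

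Ugdh, Cbr1, Osgin1 and Cat gave smaller or less precise differences in AECII, and none passed the test. Ugdh had a log2 difference of 0.13 with 18mg (interval -0.14 to 0.40) and 0.15 with 0mg (interval -0.12 to 0.42), and Cbr1 had 0.11 (interval -0.06 to 0.28) and 0.13 (interval -0.03 to 0.30). Osgin1 had 0.11 (interval -0.21 to 0.42) and 0.21 (interval -0.10 to 0.53). With 1 array left out, Osgin1 ran from 0.020 (without 18mg replicate 7) to 0.17 with 18mg. With 0mg it ran from 0.13 (without control replicate 5) to 0.27. Ugdh ran from 0.051 (without 18mg replicate 5) to 0.18 with 18mg, and from 0.081 (without control replicate 6) to 0.21 with 0mg. Cbr1 ran from 0.072 (without 18mg replicate 7) to 0.14 with 18mg. Catalase varied widely between AECII cultures, from 8.00 to 10.00 over the controls, and its differences of 0.11 with 18mg and -0.02 with 0mg carried intervals of -0.49 to 0.71 and -0.62 to 0.58.

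The regulator and its repressor gave values near 0. Nfe2l2 averaged 11.47 ± 0.25 in 18mg and 11.45 ± 0.22 in 0mg AECII, against 11.49 ± 0.19 in controls (SD, n = 8 each), with log2 differences of -0.02 (interval -0.25 to 0.22) and -0.04 (interval -0.27 to 0.20). Keap1 averaged 9.79 ± 0.16 and 9.68 ± 0.24, against 9.75 ± 0.18 in controls, with differences of 0.04 (interval -0.17 to 0.25) and -0.07 (interval -0.28 to 0.14). NRF2 is regulated mainly through protein stability, which these arrays do not measure. Over the 9 genes, 8 differences were positive with 18mg and 6 with 0mg, with medians of 0.11 and 0.15, where 54.7% and 52.9% of all genes tested were positive and the median over all genes was 0.01 in both.

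**Figure D1:**
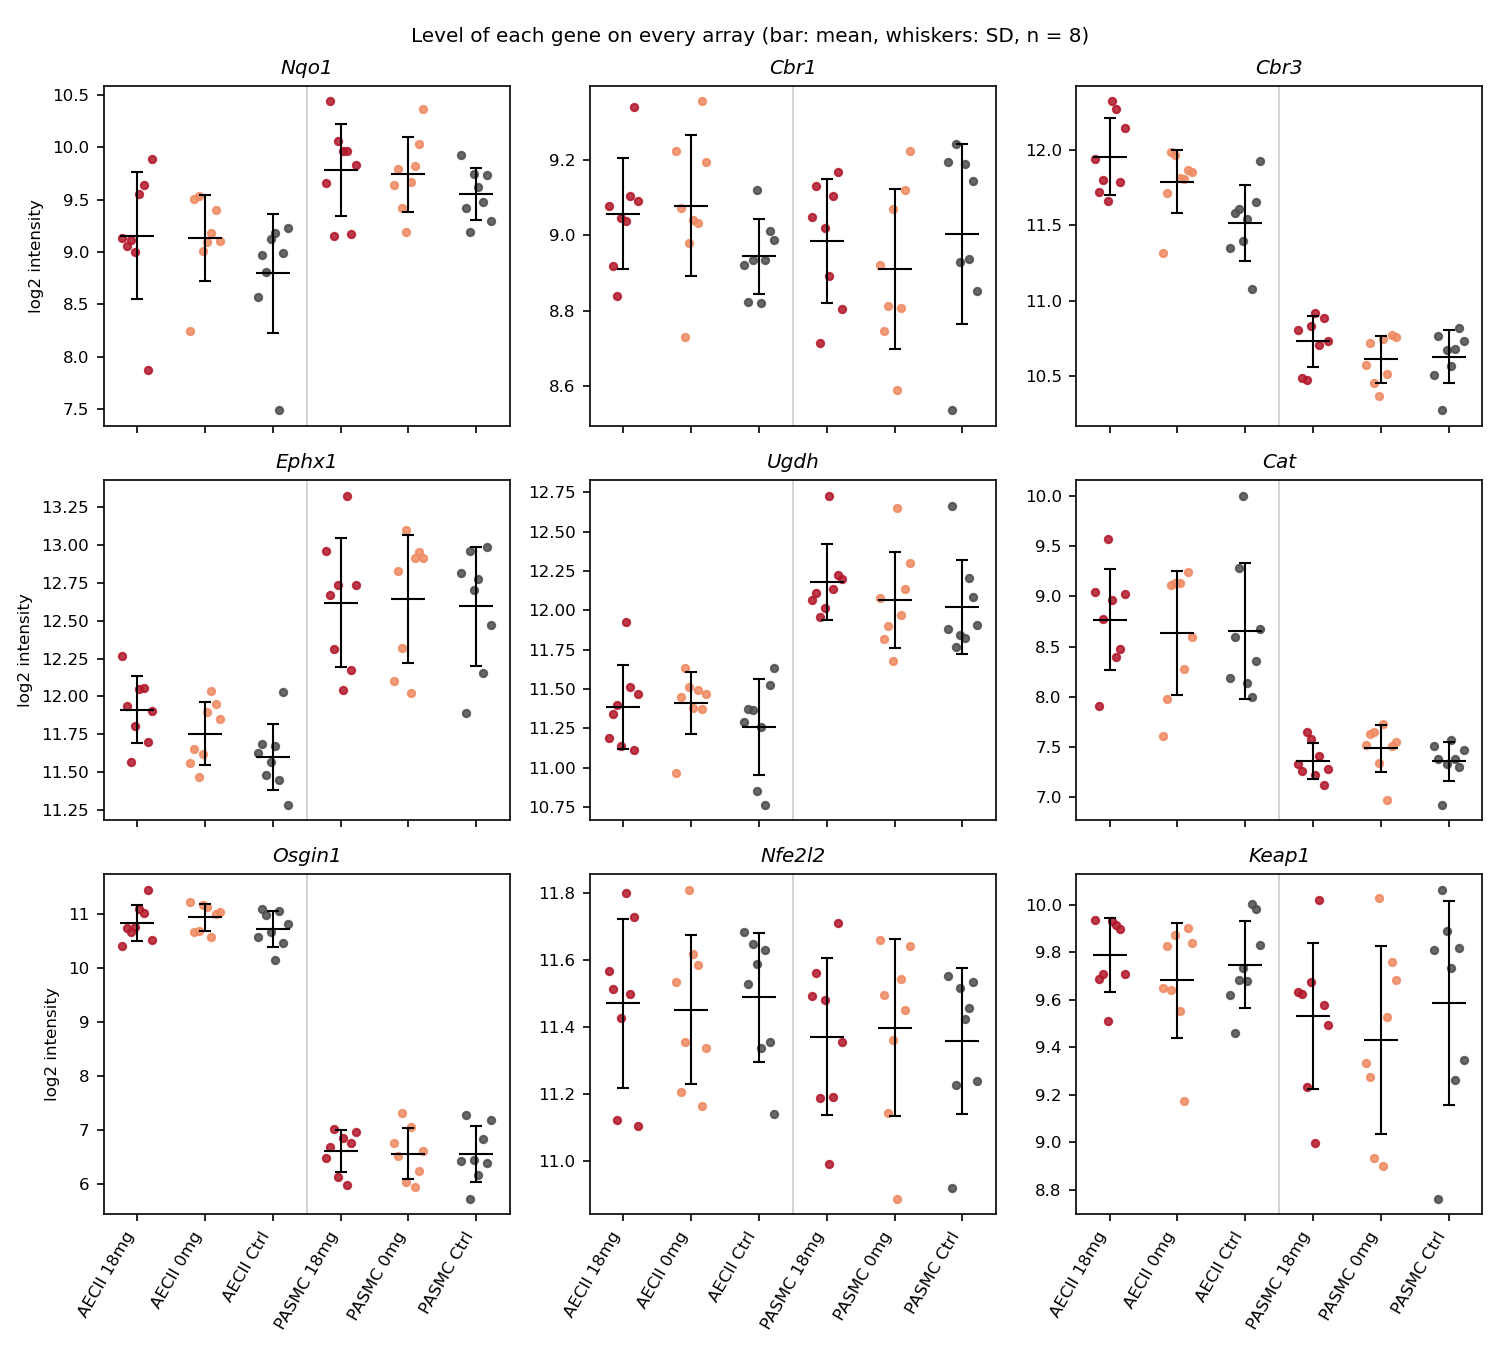
Level of each of the 9 genes (log2 intensity, vertical axis, own scale per panel) on every array, by group along the horizontal axis: AECII and then PASMC, each as 18mg, 0mg and Ctrl. Points are arrays, bars are means and whiskers are SD (n = 8). Osgin1 lies near 11 in AECII and between 5.72 and 7.31 in PASMC, and Nqo1 shows 1 low array in each AECII group.

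In PASMC, none of the 9 genes passed the test under either extract. Across the array, 4 of 14767 genes were called with 18mg (0.0271%), all lower than in controls, and 0 (0%) with 0mg, with 597 and 416 genes at an unadjusted p under 0.05. With all arrays in, Nqo1 had the largest difference of the 9 genes under both extracts. Its levels were 9.15, 9.89 and 10.44 (lowest, median, highest) in 18mg cultures and 9.19, 9.73 and 10.36 in 0mg cultures, against 9.19, 9.55 and 9.92 in controls. The low ends coincided and the extracts' high ends lay above the control range, with 6 of 8 arrays of each extract above the control mean. The log2 difference was 0.23 with 18mg (SE 0.18, interval -0.14 to 0.59) and 0.19 with 0mg (SE 0.18, interval -0.17 to 0.55). With an array left out, the value with 18mg ran from 0.13 (without 18mg replicate 2) to 0.32 (without 18mg replicate 3). With 0mg it ran from 0.10 (without 0mg replicate 8) to 0.27 (without 0mg replicate 4).

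The reductases and the hydrolase showed little difference in PASMC. Cbr3 averaged 10.73 ± 0.17 in 18mg and 10.61 ± 0.16 in 0mg cultures, against 10.63 ± 0.18 in controls (SD, n = 8 each), with log2 differences of 0.10 (interval -0.09 to 0.29) and -0.02 (interval -0.21 to 0.17). Ephx1 differed by 0.02 and 0.05, with intervals near 0.42 on either side (-0.39 to 0.44 with 18mg), since its level varied widely between PASMC cultures of every group. Cbr1 had differences of -0.02 and -0.09, and Ugdh had 0.16 and 0.04. Cat had -0.0009 with 18mg (interval -0.22 to 0.22) and 0.13 with 0mg (interval -0.10 to 0.35), Osgin1 had 0.05 and 0.01, Nfe2l2 had 0.01 and 0.04, and Keap1 had -0.05 and -0.16. None of these passed the test. With each extract 6 of the 9 differences were positive, and their medians were 0.02 with 18mg and 0.04 with 0mg, against 51.8% and 51.2% of all genes positive and medians of 0.01 and 0.00.

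**Figure D2:**
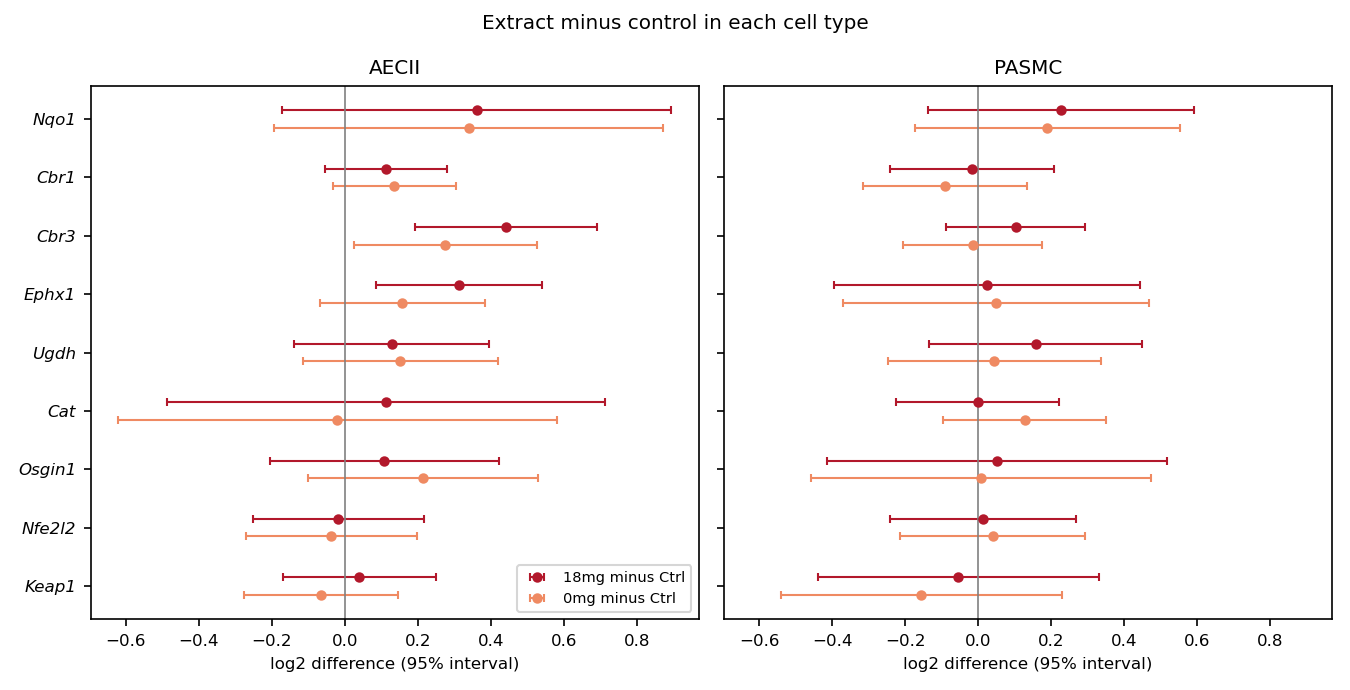
Log2 difference of each extract minus control (horizontal axis) for the 9 genes in AECII (left) and PASMC (right). Points are estimates from limma and bars are 95% intervals, with 18mg above 0mg in each pair. The intervals of Cbr3 under both extracts and of Ephx1 with 18mg in AECII leave out 0 before adjustment, and no gene passed after it.

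The extracts with and without nicotine were also set against each other. In AECII, 18mg minus 0mg ran from -0.11 for Osgin1 (interval -0.42 to 0.21) to 0.17 for Cbr3 (interval -0.08 to 0.42) on the log2 scale. In PASMC it ran from -0.13 for Cat (interval -0.35 to 0.09) to 0.12 for Cbr3 (interval -0.07 to 0.31). None of the 9 passed the test, and limma called 0 genes of the 14772 tested in AECII (0%) and 0 of the 14767 tested in PASMC (0%), with 464 and 294 at an unadjusted p under 0.05. For the carbonyl, epoxide and quinone enzymes a value above 0.42 log2 units for the nicotine contrast lay outside the intervals for Cbr3, Cbr1, Ephx1 and Ugdh in AECII, whereas for Nqo1 the interval reached 0.55.

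Whether AECII and PASMC differed in their response was tested directly, as the extract difference in AECII minus that in PASMC. Cbr3 gave 0.34 log2 units with 18mg (SE 0.15, interval 0.04 to 0.64) and 0.29 with 0mg (SE 0.15, interval -0.01 to 0.59), each with an adjusted p of 1.00 in limma. Of 14775 genes, 0 were called in either test (0% each), and 382 and 393 had an unadjusted p under 0.05. Ephx1 came next with 18mg at 0.29 (interval -0.18 to 0.76), and Cbr1 with 0mg at 0.23 (interval -0.04 to 0.49). The other genes lay between -0.15 and 0.21, so a difference of response between the cell types was not shown for any of the 9.

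The AECII and PASMC control cultures differed for 6 of the 9 genes, with 3 higher in AECII and 3 lower. Of 14775 genes, 27.9% were called higher and 31.3% lower (59.2% in all). The part of cell type, of culture history and of other cells in these differences was not tested. The share among the 9 is near that background. Osgin1 stood furthest apart, at 10.15, 10.75 and 11.10 (lowest, median, highest) in AECII controls, against 5.72, 6.44 and 7.27 in PASMC controls, and the groups did not overlap. The log2 difference was 4.18 (SE 0.19, interval 3.78 to 4.57, adjusted p = 5.2e-23 in limma). The extract groups lay between 10.41 and 11.46 in AECII and between 5.94 and 7.31 in PASMC, so AECII and PASMC arrays did not overlap there either.

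Cat and Cbr3 were also higher in AECII. Cat had levels of 8.00, 8.48 and 10.00 in AECII controls, against 6.93, 7.38 and 7.57 in PASMC controls, with no overlap and a log2 difference of 1.30 (SE 0.22, interval 0.85 to 1.75, adjusted p = 2.2e-06 in limma). A second, dim probe of Cat averaged 5.50 ± 0.44 in AECII and 5.28 ± 0.34 in PASMC controls (SD, n = 8 each). Cbr3 had 11.07, 11.56 and 11.93 in AECII controls, against 10.27, 10.67 and 10.82 in PASMC controls, again with no overlap, and differed by 0.89 (SE 0.11, interval 0.68 to 1.10, adjusted p = 6.9e-10).

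Ephx1, Ugdh and Nqo1 were lower in AECII. Ephx1 had levels of 11.29, 11.60 and 12.03 in AECII controls, against 11.89, 12.74 and 12.99 in PASMC controls, overlapping at 1 low PASMC array, and its log2 difference was -0.997 (SE 0.16, interval -1.33 to -0.67, adjusted p = 1.0e-06 in limma). Its second probe averaged 6.99 ± 0.20 in AECII and 8.01 ± 0.43 in PASMC controls. Ugdh had 10.77, 11.33 and 11.63 in AECII controls, against 11.77, 11.89 and 12.66 in PASMC controls, without overlap, with a difference of -0.76 (SE 0.14, interval -1.04 to -0.49, adjusted p = 4.2e-06). Nqo1 had 7.49, 8.98 and 9.23 in AECII controls, against 9.19, 9.55 and 9.92 in PASMC controls, overlapping at the top of the AECII range, with a difference of -0.76 (SE 0.22, interval -1.21 to -0.30, adjusted p = 0.0034).

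Cbr1, Nfe2l2 and Keap1 did not pass the test between the control cultures. Cbr1 averaged 8.94 ± 0.10 in AECII controls and 9.003 ± 0.24 in PASMC controls (SD, n = 8 each), a log2 difference of -0.06 (interval -0.25 to 0.13), although its neighbour and relative Cbr3 differed. Nfe2l2 averaged 11.49 ± 0.19 and 11.36 ± 0.22, a difference of 0.13 (interval -0.11 to 0.37), and Keap1 averaged 9.75 ± 0.18 and 9.59 ± 0.43, a difference of 0.16 (interval -0.14 to 0.47).

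**Figure D3:**
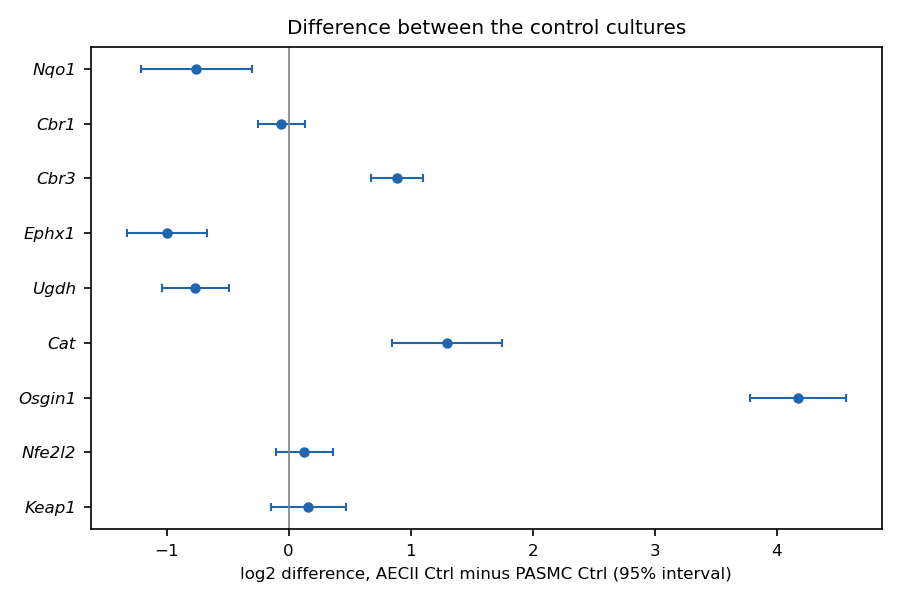
Log2 difference of AECII controls minus PASMC controls (horizontal axis) for the 9 genes, as estimates from limma with 95% intervals. Osgin1 lies at 4.18, Cat and Cbr3 lie above 0, Nqo1, Ephx1 and Ugdh lie below 0, and the intervals of Cbr1, Nfe2l2 and Keap1 include 0.

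Other enzymes of the same chemistry also differed between the control cultures, in both directions, where 27.9% of all genes were called higher and 31.3% lower in AECII. Of 21 tested relatives among the carbonyl reductases, aldo-keto reductases, epoxide hydrolases and quinone reductases, 4 were higher and 11 lower in AECII, with a median log2 difference of -0.43, against -0.04 over all genes. The lung carbonyl reductase Cbr2 was higher by 6.76 and the aldo-keto reductase Akr1b8 by 1.72, while the hydroxysteroid dehydrogenase Akr1c18 fell by 4.02 relative to PASMC and the soluble epoxide hydrolase Ephx2 fell by 2.53. The glucuronidation list holds UDP-glucuronosyltransferases and enzymes of UDP-glucuronic acid. It also holds the glucuronidase Gusb, which acts in the opposite direction. In this list 1 of 6 tested genes was higher (Uxs1, which turns UDP-glucuronic acid into UDP-xylose, at 0.84). Another 4 were lower, among them the transferases Ugt1a6b at -2.44 and Ugt1a10 at -1.96. Members of the Ugt1a family share their last exons, so probes there may not tell them apart.

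Against the same shares of all genes, 27.9% higher and 31.3% lower, 3 of 15 genes in the peroxide removal list were higher in AECII and 8 lower. The glutathione peroxidase Gpx2 was higher by 8.14, while the secreted peroxidase Gpx3 fell by 4.10 and the extracellular superoxide dismutase Sod3 fell by 2.51 relative to PASMC. Sod3 is in this list although it does not itself remove peroxide. Of 29 other NRF2 target genes, 16 were higher and 6 lower, with a median of 0.42. The glutathione S-transferases Gsta1 at 9.18 and Gsta2 at 8.25, which are near copies of each other, were highest, and the heme oxygenase Hmox1 fell by 1.95. Of 20 regulators of NRF2, 5 were higher, led by the related factor Nfe2l3 at 2.81, and 4 were lower, led by the small Maf protein Maff at -1.46. Of 21 genes in the peroxisome list, 5 were higher, led by the beta-oxidation enzyme Ehhadh at 0.81, and 8 were lower, led by the import receptor Pex5 at -0.75. The counts of the regulators and of the peroxisome list are near or under these shares. The peroxisome list also holds Pmp22, a myelin protein that is not peroxisomal, among the genes called lower.

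Under the extracts, no gene of these lists was called in either cell type. In AECII, 27 of 29 other NRF2 targets had a positive log2 difference with 18mg and 26 of 29 with 0mg, with medians of 0.20 and 0.15. Of all genes tested 54.7% and 52.9% were positive, with a median of 0.01 in both. How far these targets vary together between arrays was not tested. The genes with the smallest p with 18mg were Gsta1 at 0.50 (SE 0.13), the glutathione synthetase Gss at 0.35 (SE 0.12) and Gsta3 at 0.40 (SE 0.15). With 0mg they were Gsta1 at 0.40 (SE 0.13), the transporter Abcc3 at 0.41 (SE 0.13) and the glutathione reductase Gsr at 0.16 (SE 0.07). In PASMC, 13 and 8 of 28 tested targets were positive with 18mg and 0mg, with medians of -0.02 under both extracts. There 51.8% and 51.2% of all genes were positive. The 2 extracts share the control arrays in each cell type, so their counts are not independent of each other.

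For the other lists in AECII, where the median of all genes was 0.01 under both extracts, the medians with 18mg were 0.03 for the relatives (14 of 21 positive), 0.06 for glucuronidation (6 of 7), 0.05 for peroxide removal (10 of 15), 0.02 for regulators (14 of 20) and 0.01 for the peroxisome (13 of 21). With 0mg they were 0.04 for the relatives (13 of 21), 0.11 for glucuronidation (5 of 7), 0.01 for peroxide removal (9 of 15) and 0.01 for the peroxisome (11 of 21), and 10 of 20 regulators were positive. The glucuronosyltransferase Ugt1a6a had 0.46 with 18mg (SE 0.26) and 0.56 with 0mg (SE 0.26), Gpx2 had 0.22 with 18mg (SE 0.10) and the ubiquitin ligase scaffold Cul3, a partner of KEAP1, had 0.21 with 18mg (SE 0.10), none of which passed the test. In PASMC with 18mg the medians were -0.05 for the relatives, 0.11 for glucuronidation, 0.02 for peroxide removal, -0.02 for regulators and -0.05 for the peroxisome, where 4 of 21 genes were positive. The lysosomal glucuronidase Gusb, of the glucuronidation list, had -0.22 with 18mg (SE 0.09) and -0.19 with 0mg (SE 0.09) there.

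Within the AECII groups, the level of Cbr3 correlated with those of Ugdh and Nqo1 from array to array. The relations among the 9 genes (36 pairs) and between them and the mean levels of 9 lists of cell type markers (81 relations) were computed over the 24 AECII arrays after subtracting each group's mean, with p-values from 100000 permutations within groups, adjusted within each family. Cbr3 and Ugdh had r = 0.86 (permutation p = 1e-05, the smallest these permutations can give, adjusted 0.00036) and rho = 0.87 (p = 1e-05, adjusted 0.00036), with r = 0.79 without the 2 arrays farthest from the median of Cbr3. Within 18mg, 0mg and control arrays, r was 0.81, 0.93 and 0.88 (exact permutation p = 0.0090, 0.010 and 0.0019). Nqo1 and Cbr3 had r = 0.74 (permutation p = 0.00012, adjusted 0.0022) and rho = 0.78 (p = 8e-05, adjusted 0.0014), with r = 0.74 without the 2 farthest arrays. Within 18mg, 0mg and control arrays it was 0.66, 0.77 and 0.80 (exact permutation p = 0.055, 0.076 and 0.014).

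Nqo1 and Ugdh had r = 0.67 (permutation p = 0.00092, adjusted 0.011) and rho = 0.65 (p = 0.0017, adjusted 0.020), and this relation rested on the 3 arrays lowest in Nqo1: without them r was 0.35 over the other 21 arrays (permutation p = 0.18), while that of Nqo1 and Cbr3 was 0.63 (permutation p = 0.011). Those 3 arrays are 18mg replicate 7, 0mg replicate 1 and control replicate 6. They were also the 3 lowest of AECII in the mean of the fibroblast markers, at 6.53, 6.61 and 6.60, against 6.90 to 7.70 in the others. Over all 24 arrays Nqo1 and that mean had r = 0.77 (permutation p = 5e-05, adjusted 0.0020) and rho = 0.63 (p = 0.0018, adjusted 0.045), with r = 0.67 without the 2 arrays farthest from the median. Over the 21 other arrays r was 0.53 (permutation p = 0.027). With the low arrays back in, r within 18mg, 0mg and control arrays was 0.80, 0.76 and 0.83 (exact permutation p = 0.017, 0.021 and 0.018). Each of these groups holds 1 of the 3 low arrays. All 10 fibroblast markers were above the filter in AECII (2.67), but Fap, Postn and Lum lay close to it, at 2.94, 2.96 and 3.38 in 0mg cultures. The conditions overlapped in the mean of this marker list, with medians of 7.07 in 18mg, 7.17 in 0mg and 7.12 in control cultures.

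Other members also correlated with marker lists between AECII arrays, among them Osgin1 with the fibroblast list, opposite in sign to Nqo1. Nfe2l2 had r = -0.77 with the smooth muscle marker mean (permutation p = 5e-05, adjusted 0.0020; rho = -0.65, p = 0.0015, adjusted 0.045; r = -0.70 without the 2 farthest arrays). Ugdh had r = -0.61 with the epithelial mean (permutation p = 0.0020, adjusted 0.023; rho = -0.59, p = 0.0039, adjusted 0.045; r = -0.77 without the 2 farthest). Osgin1 had r = -0.64 with the fibroblast mean (permutation p = 0.0014, adjusted 0.019; rho = -0.59, p = 0.0037, adjusted 0.045), which was -0.52 without the 2 farthest arrays. Ephx1 had r = -0.67 with the macrophage mean (permutation p = 0.00084, adjusted 0.017), but its rho of -0.48 had an adjusted p of 0.12, and r was -0.56 without the 2 farthest arrays. Since the 24 arrays come from at most 8 mice, these p-values are too small to the extent that arrays share a mouse, and the part of the marker lists in the levels of the 9 genes was not tested.

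**Figure D4:**
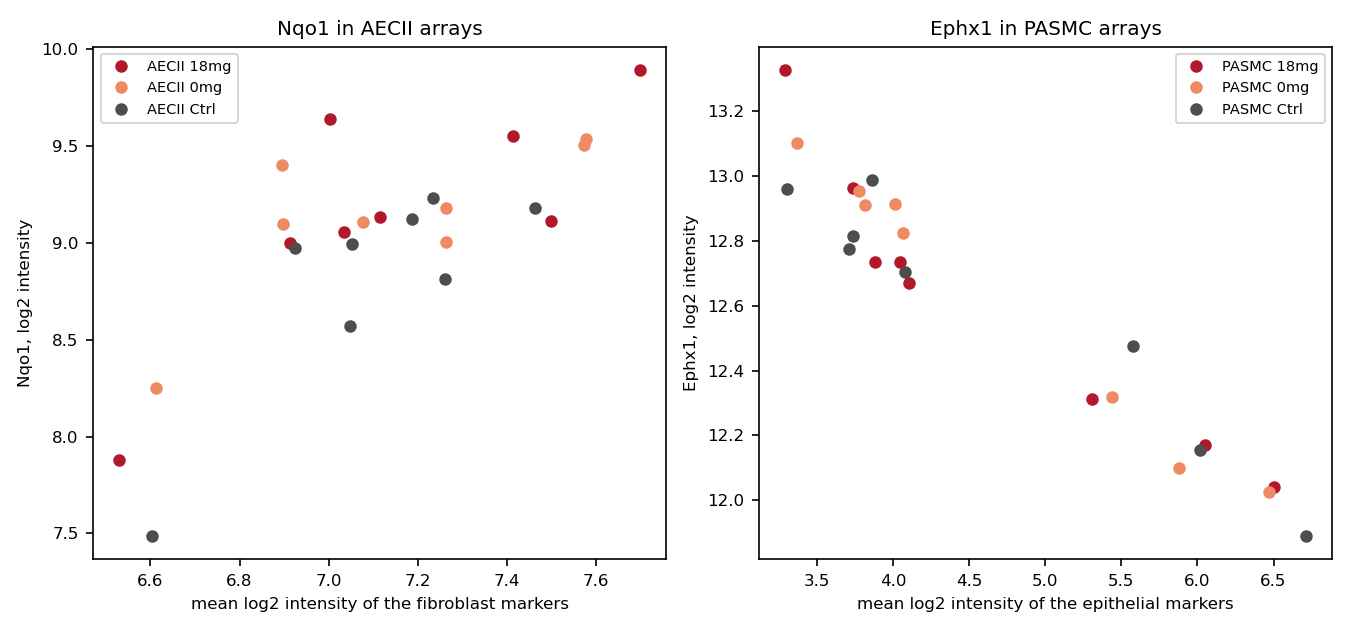
Left, Nqo1 (log2 intensity, vertical axis) against the mean log2 intensity of the fibroblast markers (horizontal axis) on the 24 AECII arrays, and right, Ephx1 against the mean of the epithelial markers on the 24 PASMC arrays, coloured by group. On the left 1 array of each group lies apart at the low end of both axes. On the right 9 arrays, 3 of each group, lie apart with an epithelial mean from 5.31 to 6.71 and Ephx1 from 11.89 to 12.47.

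PASMC arrays fell into separate sets by the mean of the epithelial markers, from 5.31 to 6.71 on 9 arrays and from 3.29 to 4.11 on the other 15, with 3 and 5 arrays of each condition. For this reason correlations between members, or of members with marker means, were not computed in PASMC. The likeness values given below run over both sets. Ephx1 ran from 11.89 to 12.47 (median 12.16) on the 9 arrays with the higher epithelial mean and from 12.67 to 13.33 (median 12.91) on the 15 others, without overlap. Keap1 ran from 8.76 to 9.58 (median 9.23) and from 9.28 to 10.06 (median 9.74), and Osgin1 from 6.75 to 7.31 (median 7.01) and from 5.72 to 6.96 (median 6.39). The medians of Ephx1 and Keap1 were thus lower, and that of Osgin1 higher, on the arrays with the higher epithelial mean. Those 9 arrays were not alike in other markers. The 3 highest in the epithelial mean (control replicate 2, 0mg replicate 5 and 18mg replicate 5) had the lowest fibroblast means of PASMC. These were 9.47, 9.81 and 9.60. The same 3 arrays had the lowest Ephx1 levels of PASMC, at 11.89, 12.03 and 12.04. Between the sets of 9 and 15 arrays, the ranges of Keap1 and Osgin1 overlapped, and so did those of the other 6 genes. For those 6 genes the medians on the 9 and the 15 arrays were 9.42 and 9.82 for Nqo1, 11.19 and 11.49 for Nfe2l2, 8.85 and 9.10 for Cbr1, 12.20 and 12.01 for Ugdh, 7.47 and 7.34 for Cat and 10.73 and 10.70 for Cbr3. The part of other cells in these levels was not tested.

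Leaving out those 9 arrays, an alternative chosen after seeing the data, none of the 9 genes was called under either extract in PASMC, and limma called 1 gene of the whole array with 18mg. Nqo1 then differed by 0.35 log2 units with 18mg, against 0.23 with all arrays, and by 0.20 with 0mg, against 0.19. Its difference of response to 18mg between AECII and PASMC was then 0.014, against 0.13. In the comparison of the control cultures the log2 difference of Osgin1 was then 4.50, that of Ephx1 -1.25, and that of Keap1 -0.12 (adjusted p = 0.42 in limma), a turn of sign against 0.16 with all arrays. The 6 called genes kept their direction and their call.

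By likeness over the 24 arrays of a cell type, as Pearson's r of group-centred levels among 14770 genes in AECII and 14760 in PASMC and given as a description only, Nqo1 was most like the peroxiredoxin Prdx1 (r = 0.89), Prkar2b (0.89) and Ifi27 (0.88) in AECII, and like Akr1c18 (0.82), Gsdme (0.79) and Errfi1 (0.75) in PASMC. Cbr3 was most like Ugdh (0.86), Ifrd1 (0.85) and the AP-1 subunit Fosl1 (0.84) in AECII, and Fosl1 also headed the list of Ugdh (0.88), before Meis1 (0.88) and Zcchc24 (0.87). Cat was most like Oacyl (0.96), E330020D12Rik (0.96) and Fam107a (0.96) in AECII. Ephx1 was most like Cobl (0.90), Fabp3 (0.89) and Tdrp (0.85) in AECII, and like Plac8 (0.96), Igfbp6 (0.95) and the lysosomal glucosidase Gaa (0.95) in PASMC.

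Osgin1 was most like Entpd3 (r = 0.88), Cdk18 (0.87) and Tmem54 (0.84) in AECII, and like Mfsd2a (0.90), Nop56 (0.90) and Hbegf (0.89) in PASMC. Nfe2l2 was most like Bcl2l1 (0.84), Dhrs3 (0.82) and Ccnf (0.81) in AECII, and like the chemokine Ccl7 (0.89), Adcy7 (0.88) and Inava (0.88) in PASMC. Keap1 reached 0.74 at most in AECII, with Sf3b5, and 0.97 in PASMC, with Slc43a3. Cbr1 reached 0.84 in AECII, with Dazap1, and 0.88 in PASMC, with Plpp7. In PASMC these values run over both sets of 9 and 15 arrays, and no gene was in the first 3 for the same member in both cell types.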

How the data were processed

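The deposited table holds log2 intensities for 62976 features on the arrays of all 6 groups. Per the submitters' processing notes the authors used limma; its version, background correction and scaling are not given in the sources used here. The near-equal medians and extremes of the arrays show that the deposited log2 values had been scaled to each other. Names came from the platform annotation, updated through accessions, giving 31465 named features and 20738 genes, and the probe with the highest mean over all arrays stood for a gene. Genes whose mean was above the 30th percentile of named features were tested: 14772 in AECII, 14767 in PASMC and 14775 over both. All 9 members passed.

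Differences were tested with limma 3.58.1 in R 4.3.3 (lmFit and eBayes on group means, no block), with Benjamini-Hochberg adjustment over all genes tested and a threshold of 0.05, and the fitting script was tested on simulated data. Intervals are 95%. The number of arrays limits the precision. Nothing in the labels ties arrays to separate animals, so the spread may be partly technical. In AECII, 0mg replicate 1, 18mg replicate 7 and control replicate 6 were alike in fibroblast means (6.61, 6.53 and 6.60). Their mesothelial means were also alike (9.32, 9.35 and 9.35). Only the replicate number was used to match arrays, and matching by marker means was not tested. To the extent that arrays are matched across conditions, intervals and p-values of the extract differences are too large. Correlations and their permutations used numpy 2.4.6 and scipy 1.17.1. In each list, the genes named are among the 4 called in each direction with the largest differences or, where none was called, the 3 with the smallest p. The 3 genes most like each member were named by correlation. The 9 members, the lists and the tests were chosen with earlier results of these data known. Alternatives were the filter, scaling, replicate block, prior variance, array weights, probe averaging, marker covariates, arrays in the fit and each array left out.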

Additional observations from a re-analysis of the deposited data

Results flagged for a closer look

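In 7 of 54 groups of 8 arrays (9 genes in 6 groups), 1 array lay far from the others. Levels here are log2 intensities. Chance flags about 1 in 20 groups where groups are independent. The same arrays serve all 9 genes, so these groups are not independent and the count is not a test. Of the 7 flagged values, 5 were low values in AECII. Nqo1 was 7.88 in 18mg replicate 7 with the nearest other array at 8.997, 8.25 in 0mg replicate 1 with the nearest at 9.01, and 7.49 in control replicate 6 with the nearest at 8.57. In the same 0mg replicate 1, Cbr3 was 11.32 with the nearest at 11.72, and Ugdh was 10.97 with the nearest at 11.37. In PASMC, Ugdh was 12.73 in 18mg replicate 5 with the nearest at 12.23, and Cat was 6.93 in control replicate 3 with the nearest at 7.30.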

How the results depend on the processing

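The 6 genes called between the control cultures kept their direction and their call in 54 of 54 values under the alternatives and in 96 of 96 values with an array left out. No uncalled member result became called. Of 702 values of 75 uncalled results under the alternatives, 14 turned sign (9 results, the largest at 0.16), as did 118 of 1488 with an array left out (33 results, none above 0.15). The cause was not tested. The interval widths, and 8 arrays a group, limit what small differences can be seen.

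The numbers of genes called in PASMC depended on the setting. With 18mg it was 4, against 1 with no filter, 8 with the filter at the 50th percentile, 9 with array weights, 1 with the mean of all probes, 8 with marker covariates, 1 without the 9 PASMC arrays (chosen after seeing the data) and 1 to 4 with an array left out. With 0mg it was 0, against 1 with array weights, 1 with marker covariates and 0 to 1 with an array left out (1 without PASMC control replicate 2). For the difference of response to 18mg it was 0, against 1 with array weights and 1 without the 9 arrays. With the replicate number as a block, 0 genes were called in PASMC with 18mg, and no member changed its call. Same-numbered arrays correlated at -0.40 to 0.19 there, with 3 of 8 pairs over 0.1, and at -0.20 to 0.27 in AECII, with 2 of 8. Between PASMC 18mg and 0mg they ran from -0.08 to 0.61, with 5 of 8 over 0.1 and 3 arrays closest to their own number. Since not every pair was over 0.1 in any of these, the numbers were not taken to pair the arrays.

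Log2 differences that turned sign were, with array weights, Cat in AECII 0mg (0.13), Ephx1 in PASMC 18mg (-0.013), Nfe2l2 in PASMC 18mg (-0.017), Cat in the response to 0mg (0.080) and Osgin1 in the response to 18mg (-0.0028). With the mean of all probes they were Cat in AECII 0mg (0.060) and in the response to 0mg (0.028), and with centred arrays Cat in PASMC 18mg (0.00082). Without the 9 PASMC arrays they were Cbr3 in PASMC 0mg (0.06), Cat (0.046) and Nfe2l2 (-0.035) in PASMC 18mg, Keap1 between control cultures (-0.12), and Osgin1 (-0.10) and Nfe2l2 (0.017) in the response to 18mg.

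With an array left out, these log2 differences ranged across 0. In AECII with 18mg against control they were Cat -0.0019 to 0.31, Nfe2l2 -0.068 to 0.034 and Keap1 -0.0019 to 0.079. In AECII with 0mg against control they were Cat -0.11 to 0.17, Nfe2l2 -0.088 to 0.0039 and Keap1 -0.11 to 0.0069. In AECII with 18mg against 0mg they were Nqo1 -0.11 to 0.20, Cbr1 -0.072 to 0.017, Ugdh -0.10 to 0.016, Cat -0.013 to 0.26 and Nfe2l2 -0.028 to 0.071. In PASMC with 18mg against control they were Cbr1 -0.084 to 0.021, Ephx1 -0.077 to 0.11, Cat -0.063 to 0.032, Osgin1 -0.068 to 0.15, Nfe2l2 -0.050 to 0.067 and Keap1 -0.17 to 0.022. In PASMC with 0mg against control they were Cbr3 -0.066 to 0.020, Ephx1 -0.052 to 0.14, Ugdh -0.039 to 0.14, Osgin1 -0.11 to 0.11 and Nfe2l2 -0.023 to 0.11. In PASMC with 18mg against 0mg they were Nqo1 -0.056 to 0.13, Ephx1 -0.13 to 0.058, Osgin1 -0.045 to 0.15 and Nfe2l2 -0.10 to 0.028. In the response to 18mg they were Nqo1 -0.054 to 0.32, Ugdh -0.12 to 0.050, Cat -0.00099 to 0.31, Osgin1 -0.045 to 0.18 and Nfe2l2 -0.085 to 0.032. In the response to 0mg they were Nqo1 -0.037 to 0.28 and Cat -0.24 to 0.044.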
